A study of Homo sapiens with 20 samples.

Results

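The metallothioneins and 2 genes of zinc control were followed through erythroid differentiation of HUDEP-2, an immortalized line of human erythroid progenitors from umbilical cord blood. The 10 genes, of 46425 in the deposited tables, were taken by symbol: the metallothioneins MT1A, MT1E, MT1F, MT1G, MT1H, MT1M, MT1X and MT2A, the transcription factor gene MTF1 and the zinc exporter gene SLC30A1. MT1G was picked because it appeared by day 8, so its values are given as a description without a test, and no gene was tested between day 8 and day 0. Poly(A)-selected, stranded RNA libraries were made from cells before differentiation (day 0, in StemSpan SFEM with EPO, SCF, doxycycline and, by the methods of the study, dexamethasone) and from cells kept in differentiation medium for 1 to 8 or 12 days. That medium was IMDM with holo-transferrin, AB human serum, heparin, insulin, glutamine, EPO, SCF and doxycycline; SCF was left out from day 6 and doxycycline from day 8. Each day had 2 libraries of 52131713 to 70358198 counts, 1 from a table that held all days (the all-days library) and 1 from tables that held days 0 to 6, days 7 and 8, or day 12 (the separate-days library). Every group is a culture of the same immortalized line. The libraries of days 0 and 8 are described as biological replicates, but for the other days neither labels nor methods say that the cultures were separate, so p-values measure the spread between these libraries, which may be technical.

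Metallothioneins are small proteins rich in cysteine that bind zinc and copper and buffer the free metal in the cell. MTF1 is a zinc finger transcription factor that binds metal response elements when zinc is plentiful and switches on metallothionein genes and SLC30A1, whose product carries zinc out of the cytosol. Glucocorticoids also raise some metallothionein genes, MT2A among them. Erythroid cells make large amounts of carbonic anhydrase, a zinc enzyme, and their lineage factor GATA1 itself has zinc fingers.

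The 8 metallothionein genes lay within 75.6 kb of chromosome 16 (hg38, chr16:56608584-56684196), in the order MT2A, MT1E, MT1M, MT1A, MT1F, MT1G, MT1H and MT1X, with MT1G alone on the minus strand. MTF1 lay at chr1:37809574-37859592 and SLC30A1 at chr1:211571568-211579161, both on the minus strand. RefSeq promoters were at hand for 5 of the 10 genes (MT2A, MT1H, MT1X, MTF1 and SLC30A1) and not for MT1A, MT1E, MT1F, MT1G and MT1M. In the 250 bases before the start of each gene (GRCh38.p14), the core of the metal response element was searched as TGCACNC and TGCGCNC on both strands. MT1H held 8 cores, MT2A 7, MT1X 4, SLC30A1 1 and MTF1 0, and no matches within a promoter overlapped. Of all 35116 promoters, 24.8% held at least 1 core, 0.370% at least 4 and 0.0171% at least 8. The sequences of MT2A (plus strand, chr16:56608334-56608583), MT1H (plus strand, chr16:56669564-56669813), MT1X (plus strand, chr16:56682220-56682469) and SLC30A1 (minus strand, chr1:211579162-211579411) are shown because MT2A, MT1X and SLC30A1 passed the test from day 0 to day 1 below and MT1H lies beside MT1G; capitals mark the cores, and a match is a description of letters, not a bound site.
MT2A: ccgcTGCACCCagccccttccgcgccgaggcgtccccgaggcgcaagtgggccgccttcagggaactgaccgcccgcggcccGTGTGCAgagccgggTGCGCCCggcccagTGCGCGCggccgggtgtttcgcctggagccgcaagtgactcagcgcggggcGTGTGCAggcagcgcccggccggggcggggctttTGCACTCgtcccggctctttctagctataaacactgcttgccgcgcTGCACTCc
MT1H: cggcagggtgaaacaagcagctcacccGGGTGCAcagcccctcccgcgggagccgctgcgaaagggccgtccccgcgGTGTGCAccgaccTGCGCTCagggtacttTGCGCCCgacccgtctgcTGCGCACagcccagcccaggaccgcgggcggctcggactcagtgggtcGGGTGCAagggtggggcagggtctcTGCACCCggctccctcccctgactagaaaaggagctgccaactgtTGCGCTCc
MT1X: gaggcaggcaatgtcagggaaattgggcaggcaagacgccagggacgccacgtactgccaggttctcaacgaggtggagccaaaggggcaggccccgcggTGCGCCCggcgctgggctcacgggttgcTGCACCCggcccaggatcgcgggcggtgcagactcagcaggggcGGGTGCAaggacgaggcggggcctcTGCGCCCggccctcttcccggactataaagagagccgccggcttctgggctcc
SLC30A1: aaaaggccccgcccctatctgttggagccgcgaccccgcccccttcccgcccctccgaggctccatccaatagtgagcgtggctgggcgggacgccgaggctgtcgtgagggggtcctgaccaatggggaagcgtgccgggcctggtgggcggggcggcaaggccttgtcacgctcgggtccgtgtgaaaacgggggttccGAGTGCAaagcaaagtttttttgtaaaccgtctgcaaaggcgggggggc

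Before differentiation the metallothioneins were almost silent. On day 0, MT1A, MT1F, MT1G, MT1H and MT1M had 0 counts in both libraries, which allows up to 3 counts, or 0.0459 and 0.0520 CPM (counts scaled to the library total). MT1E had 4 and 0 counts, MT1X 15 and 2, and MT2A 51 and 11, with the all-days library first, as in every pair of values below. One day later all 8 were present in both libraries. Summed over the 8 genes, TPM (transcript abundance scaled for length and library total) went from 5.51 and 1.10 on day 0 to 542 and 233 on day 1, the highest of the 10 days in both libraries.

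MT2A, the metallothionein found in nearly all tissues, made up the largest part of that sum, 48.4% and 65.2% on day 1. Its TPM was 4.18 and 0.937 on day 0, 262 and 152 on day 1, 70.1 and 41.5 on day 2, and then stayed between 37.3 and 87.8 on days 3 to 8. Ordered by mean TPM, day 1 stood above and day 0 below all others, and the levels of neighbouring days in between overlapped. On day 12 MT2A was at 78.7 and 88.4 TPM, close to the level of day 3. In normalised CPM, the scale of the edgeR tests below, day 12 stood highest instead. There MT2A was at 60.2 and 51.3 on day 12 and at 43.0 and 27.0 on day 1.

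MT1G was not first seen on day 8 but on day 1. It had 1638 and 586 counts on day 1, or 150 and 40.7 TPM, and 251 and 37 counts on day 2. A second, lower crest followed, with 93.1 and 26.7 TPM on day 3 and 94.8 and 23.4 TPM on day 5, before 30.5 and 9.01 TPM on day 8. On day 12 MT1G was at 9 and 7 counts, or 0.390 and 0.375 TPM. Against the 3-count limit of day 0, averaged over its 2 libraries, mean CPM was at least 387-fold higher on day 1, or at least 175-fold from the lower library. The levels of day 1, days 3 to 8 and day 2 overlapped between neighbours in the order, whereas days 12 and 0 lay below the rest. Of its 2 transcripts, NM_001301267 held 77.0% to 87.1% of MT1G counts in each library from day 1 to day 8.

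The other MT1 genes fell into those that persisted and those seen almost only on day 1. MT1H, on the opposite strand beside MT1G, had 46.3 and 8.69 TPM on day 1, 3.30 and 0.247 on day 2, 26.1 and 3.61 on day 5 and 6.42 and 1.69 on day 8. MT1X kept more of its level, with 42.3 and 18.6 TPM on day 1, 32.5 and 12.7 on day 2, 40.1 and 21.5 on day 3 and 10.7 and 10.1 on day 8. MT1E had 17.1 and 2.95 TPM on day 1 and 6.60 and 0.952 on day 8. By contrast, MT1F had 133 and 87 counts on day 1 and at most 17 on any later day, with 0 in both libraries of days 7, 8 and 12. MT1M had 91 and 51 counts on day 1 and 0 to 4 in every other library. MT1A had 43 and 11 counts on day 1 and 0 in the other 18 libraries. MT2A, MT1X, MT1G, MT1H and MT1E were lower on day 2 than on both day 1 and day 3 in each library set; this dip was not tested.

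**Figure D1:**
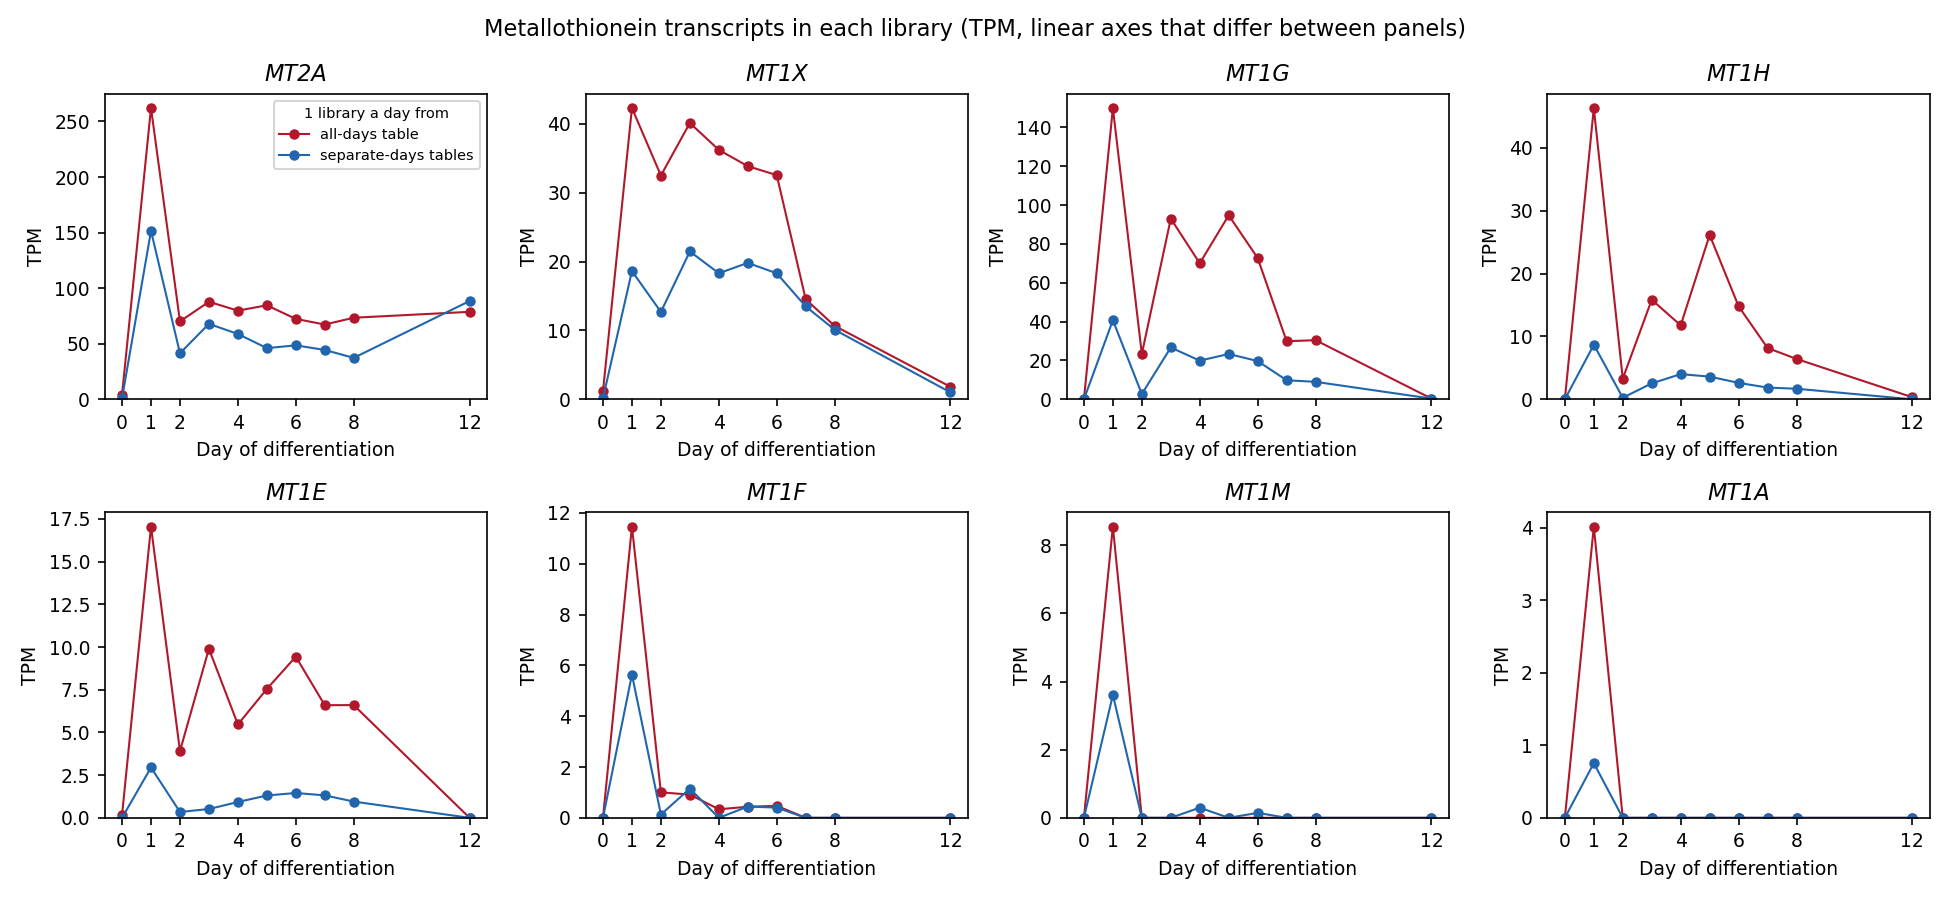
TPM of the 8 metallothionein genes (vertical axes, linear, from 0, different in each panel) by day of differentiation (horizontal axes), 1 point for each library and 1 colour for each set of libraries. The highest point of each panel is a day 1 library, and MT1F, MT1M and MT1A sit near 0 from day 4 on.

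Day 1 against day 0 asked what changed first in differentiation medium. Of the 16784 genes tested by edgeR's quasi-likelihood test in 1 fit of all 20 libraries, 44 were higher (0.262%) and 22 lower (0.131%) at an adjusted p (Benjamini-Hochberg) under 0.05. Besides MT1G, 8 of the other 9 genes passed the filter on low counts (MT1A did not), and 3 of these 8 rose and 0 fell. SLC30A1 rose by a log2 fold change of 3.10 (SE 0.28, edgeR adjusted p = 2.97e-04), from 379 and 227 counts to 2650 and 2455. MT2A rose by 6.37 (SE 0.58, edgeR adjusted p = 2.97e-04), from 51 and 11 counts to 2802 and 2133. By p-value they ranked 2 and 3 of the 16784. MT1X rose by 5.46 (SE 0.80, edgeR adjusted p = 0.00990). The differences within each set were 3.02 and 3.20 for SLC30A1, 5.94 and 7.12 for MT2A, and 4.94 and 5.78 for MT1X.

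The 4 other tested metallothioneins did not pass. Their edgeR adjusted p-values were 0.310 for MT1E, 0.0667 for MT1F, 0.120 for MT1H and 0.252 for MT1M. MT1M passed the filter on low counts only through day 1, where it was high, so its rise is a description and supports nothing. Against the 3-count limit, mean CPM on day 1 was at least 37.3-fold higher for MT1F (26.0-fold from the lower library), at least 108-fold for MT1H (36.5-fold), at least 24.3-fold for MT1M (15.3-fold) and at least 9.51-fold for MT1A (3.29-fold). With the library set as a block, MT1E (adjusted p = 2.32e-04), MT1F (0.0160) and MT1H (1.06e-04) also passed, 6 of 8 in all, beside 2.63% of all genes. In a fit of the 4 libraries of days 0 and 1 alone, 0 of the 8 passed in edgeR (7 at an unadjusted p under 0.05), and so did 0 of 14843 genes, with a lowest adjusted p of 0.263. MT1X lost its call without the separate-days library of day 0 (log2 fold change 4.71), where fewer of all genes passed as well.

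MTF1 mRNA itself did not pass. It was at 7.48 and 7.54 TPM on day 0 and 8.67 and 5.27 on day 1, a fitted log2 fold change of -0.04 (SE 0.22, edgeR adjusted p = 1). Over all 20 libraries MTF1 stayed between 5.27 and 9.61 TPM.

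Among 23 other zinc transporter genes, 17 passed the filter on low counts, and 1 rose and 1 fell from day 0 to day 1. The genes of the SLC30A family move zinc out of the cytosol and those of the SLC39A family move it in. SLC30A2, which loads zinc into vesicles, was at 0.0387 and 0.0371 TPM on day 0 and 1.96 and 2.75 on day 1, a rise of 5.83 (SE 1.08, edgeR adjusted p = 0.0431). SLC39A10, a zinc importer of the plasma membrane, was at 80.1 and 67.8 TPM on day 0 and 22.5 and 21.0 on day 1. It fell by 1.68 on the log2 scale (SE 0.25, edgeR adjusted p = 0.00990), and its p-value ranked 17 of 16784. The median log2 fold change of the 17 was -0.01, beside 0 for all genes tested. In the 4 libraries alone neither passed (both at an adjusted p of 0.289).

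Of the glucocorticoid receptor gene and 7 targets, 0 passed in this step by edgeR, 4 fell and 1 rose in the next, beside 6.4% and 4.35% of all genes, and 1 fell and 5 rose from days 4 to 6 to day 8, beside 10.8% and 11.9% of all genes. In edgeR 0 of the 8 genes (NR3C1, the receptor, and FKBP5, TSC22D3, PER1, KLF9, ZBTB16, DUSP1 and SGK1) passed from day 0 to day 1, with a median log2 fold change of 0.20; the count was 0 also at an unadjusted p under 0.05, by DESeq2, by edgeR's exact test and by limma. From day 1 to days 4 to 6, FKBP5, TSC22D3, PER1 and KLF9 fell by 1.68, 3.97, 3.30 and 1.31 (edgeR adjusted p = 6.52e-05, 9.10e-04, 8.58e-06 and 0.00656), and NR3C1 rose by 0.63 (0.00873). FKBP5, a chaperone of the receptor, was at 820 and 707 TPM on day 0, 788 and 641 on day 1 and 838 and 785 on day 2, and then at 311 and 233 on day 3. PER1, a clock gene, likewise was at 79.4 and 68.3 TPM on day 2 and 9.05 and 6.58 on day 3. From day 2 to day 3, over which these targets were lower, MT1G and MT2A were higher on day 3 than on day 2 in each library set. The part of glucocorticoid in the metallothionein levels was not tested.

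**Figure D2:**
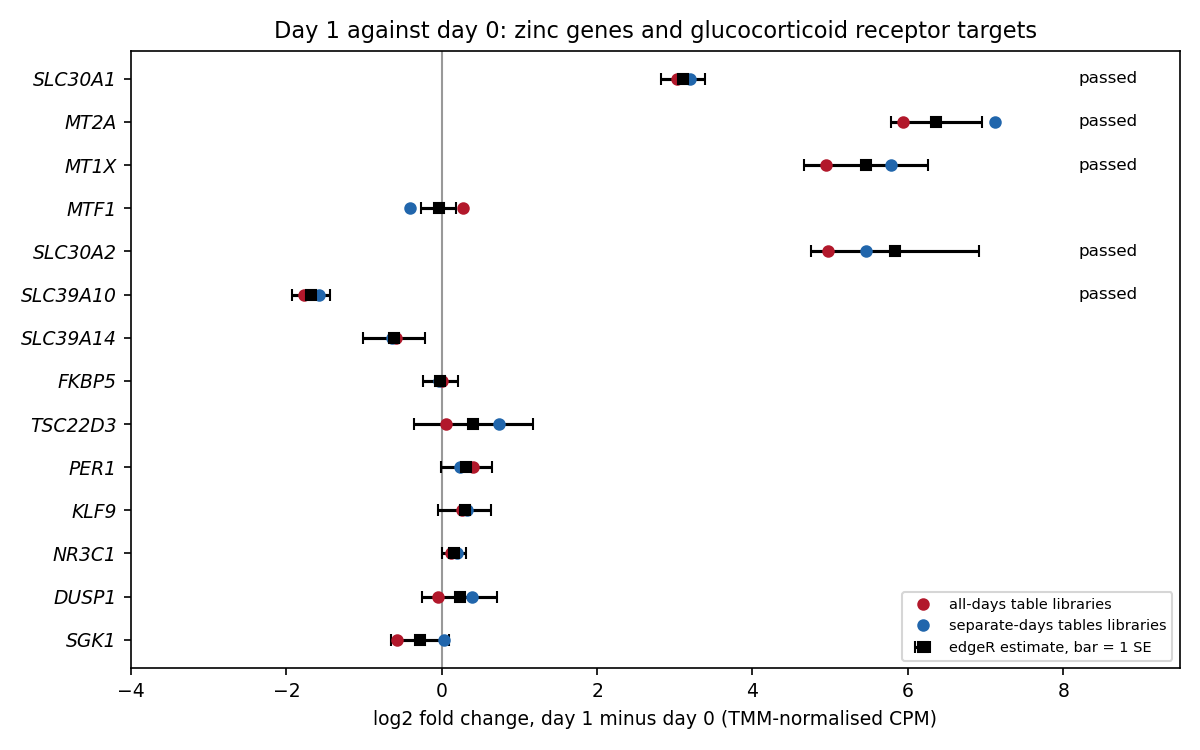
Log2 fold change from day 0 to day 1 (horizontal axis, TMM-normalised CPM) of 3 metallothionein and zinc genes that passed, MTF1, 3 zinc transporters and 7 glucocorticoid receptor genes. Black squares with bars are the edgeR estimate and its SE, coloured points the difference within each set of libraries, and "passed" marks an adjusted p under 0.05; MT2A, MT1X and SLC30A2 lie above 4, SLC39A10 below -1, and FKBP5, TSC22D3, PER1 and KLF9 near 0.

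Genes of metal and oxidative stress and of copper handling were read beside these. Of 9 stress genes 0 passed from day 0 to day 1 in edgeR, beside 0.393% of all genes. At an unadjusted p under 0.05 were 5 of the 9, and 1538 of all 16784 genes. By DESeq2 2 were higher, beside 2.87% of all genes called, and by edgeR's exact test 3, beside 1.65%. With the library set as a block 2 were higher, beside 2.63%. Limma gave 2 on log2(TPM + 1), beside 1.78%, and 0 on log2(TPM + 0.1), beside 0.935%. HMOX1, haem oxygenase, was at 6.04 and 8.32 TPM on day 0 and 21.3 and 15.7 on day 1. NQO1 was at 4.12 and 4.02 TPM on day 0 and 13.5 and 22.4 on day 1, whereas HSPA1A went from 120 and 126 to 103 and 78.7. Of 7 copper genes tested 0 passed in that step in edgeR, at an unadjusted p under 0.05, by DESeq2 or by limma. With the library set as a block 0 passed, and 2 were at an unadjusted p under 0.05. Among markers of other cell types, 3 of the 6 leukocyte genes, MPO and CD3E among them, had at most 3 counts in every library. The others had more in some libraries, and the list summed to 0.0462 to 2.54 TPM. Fibroblast and epithelium markers summed to 253 and 250 TPM on day 0, 218 and 181 on day 1 and 0.484 and 1.11 on day 12. The part of these markers in the result was not tested. Erythroid markers summed to 31465 TPM or more in each library, which fits the label of the line. Mast cell markers (MS4A2, TPSAB1 and CPA3) summed to 537 and 1018 TPM on day 0 and 514 and 1394 on day 1, and their part in the result was not tested. In such bulk samples, fewer cells that express a gene and less of its RNA per cell cannot be told apart.

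From day 1 to days 4 to 6 the exporter went on rising while part of the family receded. Of the 8 genes tested 1 rose, beside 4.35% of all genes, and 3 were called lower, beside 6.4% of all genes. MT1M, 1 of these 3, passed the filter on low counts only through day 1, where it was high, so its fall to 0 to 4 counts is a description and supports nothing. SLC30A1 rose by 1.11 (SE 0.23, edgeR adjusted p = 0.00707), to 23.7 to 36.6 TPM in the 6 libraries of those days. MT2A fell by 1.59 on the log2 scale (SE 0.34, edgeR adjusted p = 0.00937), to between 46.1 and 84.6 TPM. MT1F fell by 4.51 (SE 0.78, edgeR adjusted p = 0.00678), to 0 to 7 counts. MT1X differed by -0.11 (SE 0.51, edgeR adjusted p = 0.951), with levels that overlapped.

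These calls rested on the day 1 libraries, and without either of them fewer of all genes passed as well. Without the all-days library of day 1, MT2A (adjusted p = 0.127) and MT1F (0.0584) did not pass, and without the separate-days library SLC30A1 (0.163) did not. With the library set as a block MT1E (-1.18, adjusted p = 0.0149) and MT1H (-1.33, adjusted p = 0.0110) fell as well. That fit called 21.6% of all genes in either direction, beside 10.8% in the fit as reported. SLC39A10 fell further by 0.98 (SE 0.19, edgeR adjusted p = 0.00506), to between 7.51 and 12.3 TPM. SLC39A14, an importer of zinc, iron and manganese, fell by 1.75 (SE 0.30, edgeR adjusted p = 0.00277). Of the 17 zinc transporters 5 were lower in edgeR, beside 6.4% of all genes, with a median of -0.18 beside -0.02 for all genes tested. By limma on log2(TPM + 0.1) 4 were lower and 1 higher, where 10.3% of all genes passed in either direction.

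Day 8 against days 4 to 6 left SLC30A1 as the one gene of the 8 that passed, beside 11.9% of all genes that were higher and 10.8% that were lower. It rose by 1.45 (SE 0.20, edgeR adjusted p = 4.62e-04), to 55.7 and 60.8 TPM. MT2A (0.18, adjusted p = 0.774), MT1H (-0.91, adjusted p = 0.635) and MT1X (-0.90, adjusted p = 0.257) did not pass by edgeR. The separate-days libraries of days 7 and 8 had 18.5% and 17.5% of their counts in ribosomal RNA genes, beside 1.03% to 4.08% in the others; without these 2 libraries SLC30A1 was again the one that passed, while the share of all genes called in either direction went from 22.7% to 3.16%. Among the zinc transporters SLC30A10, a manganese exporter, rose by 3.01 (SE 0.47, edgeR adjusted p = 0.00105), to 6.19 and 14.5 TPM. SLC39A14 fell by 3.05 (SE 0.41, edgeR adjusted p = 4.52e-04), to 0.417 and 0.451 TPM, and SLC39A10 by 1.03 (SE 0.21, edgeR adjusted p = 0.00489), to 4.54 and 3.18 TPM.

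**Figure D3:**
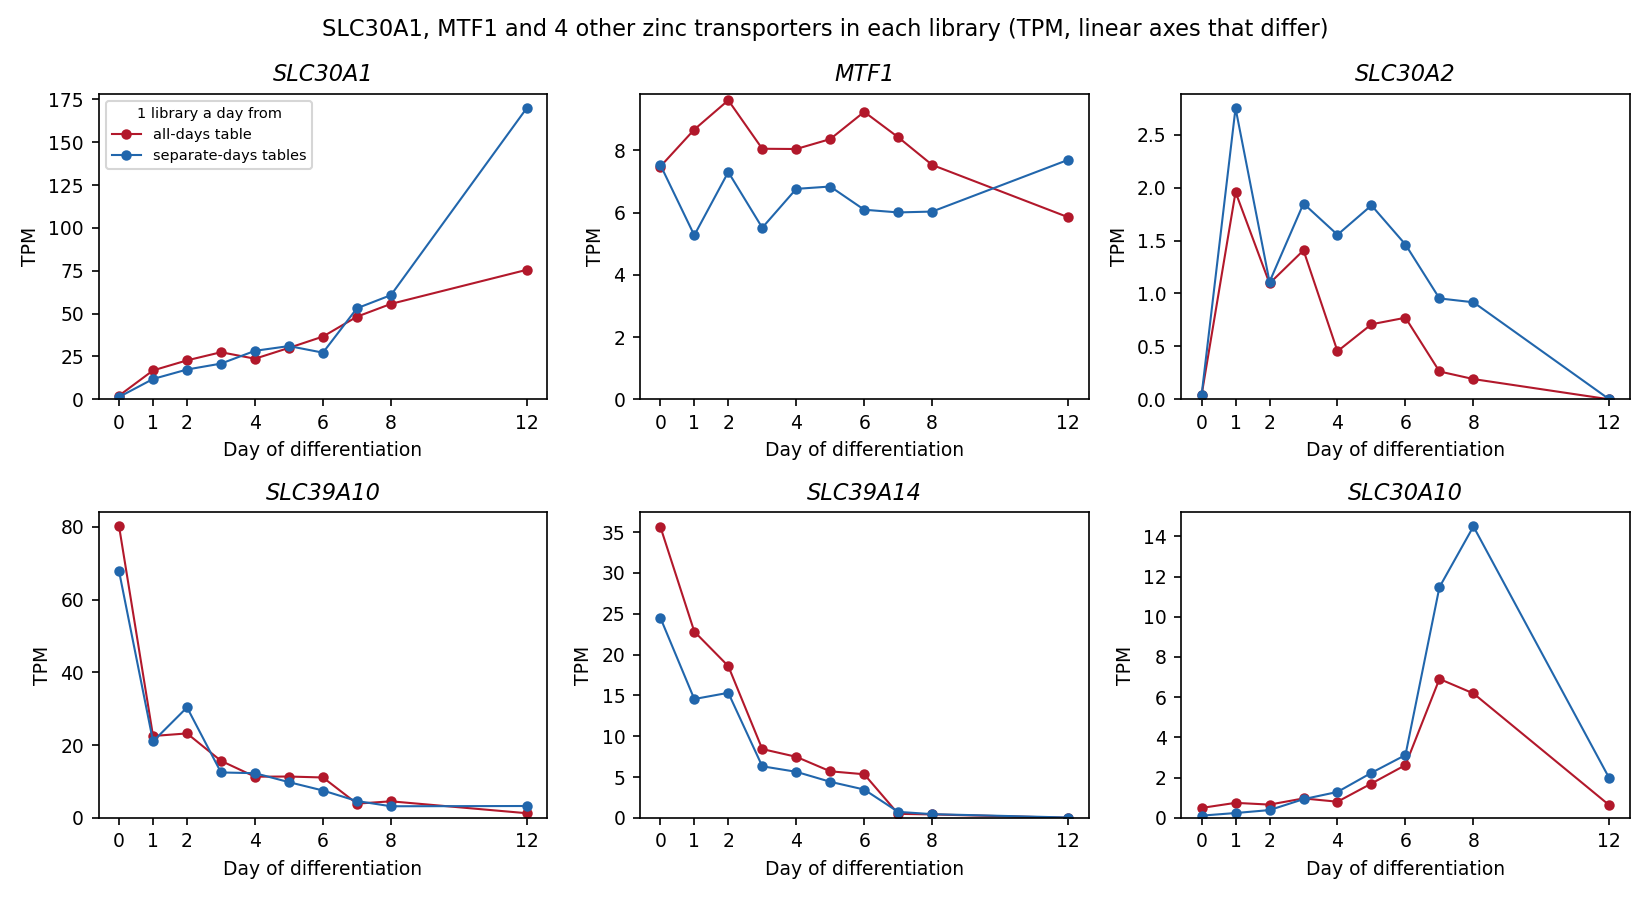
TPM of SLC30A1, MTF1 and 4 other zinc or manganese transporters (vertical axes, linear, from 0, different in each panel) by day of differentiation (horizontal axes), 1 point for each library. SLC30A1 climbs in both sets from 2.15 and 1.38 TPM on day 0 to 75.6 and 170 on day 12, MTF1 stays between 5.27 and 9.61, and SLC39A10 and SLC39A14 fall to under 5 by day 8.

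On day 12 the MT1 genes were at 40 counts or fewer, whereas MT2A and SLC30A1 were not. SLC30A1 reached 75.6 and 170 TPM, above all earlier libraries, and MT1E, MT1F, MT1M and MT1A had 0 counts, MT1H 8 and 0, and MT1X 40 and 19. MT2A now made up 96.9% and 98.5% of the summed metallothionein TPM, more than in any earlier library. In counts scaled by TMM, the trimmed mean of M-values, 3 of the 8 genes rose from day 8, beside 23.8% of all genes, and 1 fell, beside 33.4%. SLC30A1 rose by 2.44 (SE 0.27, edgeR adjusted p = 4.00e-06), MT2A by 2.08 (SE 0.46, edgeR adjusted p = 0.00166) and MTF1 by 1.43 (SE 0.23, edgeR adjusted p = 1.04e-04). MT1E fell (edgeR adjusted p = 0.0305), being on day 8 at least 17.2-fold above the 3-count limit of day 12, or 5.40-fold from the lower library.

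Only part of this held on the TPM scale. Globin genes took 33.7% and 28.2% of counts on day 12, and between the TMM and TPM scales the median of all genes moved from -0.20 to -1.20 (log2(TPM + 0.1)) for day 12 against day 8. SLC30A1 still rose by 0.96 by limma (adjusted p = 0.0195), MT2A was 0.67 higher without passing (adjusted p = 0.315) and MTF1 had a difference of -0.0063 (adjusted p = 1), the reverse sign. MT1X passed there as lower (-2.85, adjusted p = 0.00219). MT1E lost its call by limma on log2(TPM + 1) (-1.95, adjusted p = 0.170). It also lost it without either library of day 12 or the all-days library of day 8.

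From day 0 to day 12, 4 of the 8 genes were higher in edgeR, beside 29.7% of all genes that were higher and 38.5% that were lower: SLC30A1 by 8.11 (SE 0.35, adjusted p = 5.41e-10), MT2A by 7.04 (SE 0.60, adjusted p = 1.92e-07), MT1X by 3.11 (SE 0.77, adjusted p = 0.00264) and MTF1 by 1.87 (SE 0.23, adjusted p = 6.62e-06). On log2(TPM + 0.1), SLC30A1 (5.96, limma adjusted p = 1.39e-09) and MT2A (5.31, limma adjusted p = 9.17e-07) passed, MT1X did not (1.33, adjusted p = 0.0910) and MTF1 had the reverse sign (-0.16, adjusted p = 0.647). Of the 17 zinc transporters, 3 were higher and 10 lower on day 12 than on day 8 in TMM-scaled counts, beside 23.8% and 33.4% of all genes. By limma 17 were lower on log2(TPM + 0.1), where 66.1% of all genes passed in either direction, and 14 on log2(TPM + 1), where 62% did. SLC39A8, an importer of zinc and manganese, had the highest TPM of the list on day 8, 200 and 133, and was at 8.62 and 20.03 on day 12. Against the same shares of all genes, 8 of the 9 stress genes were higher than on day 8 in TMM-scaled counts, but 2 were higher and 2 lower on TPM with either pseudocount; HMOX1 rose in both and reached 507 and 582 TPM. Of the 8 glucocorticoid genes 5 were higher and 1, FKBP5, lower in TMM-scaled counts, beside 4 and 1 on TPM.

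**Figure D4:**
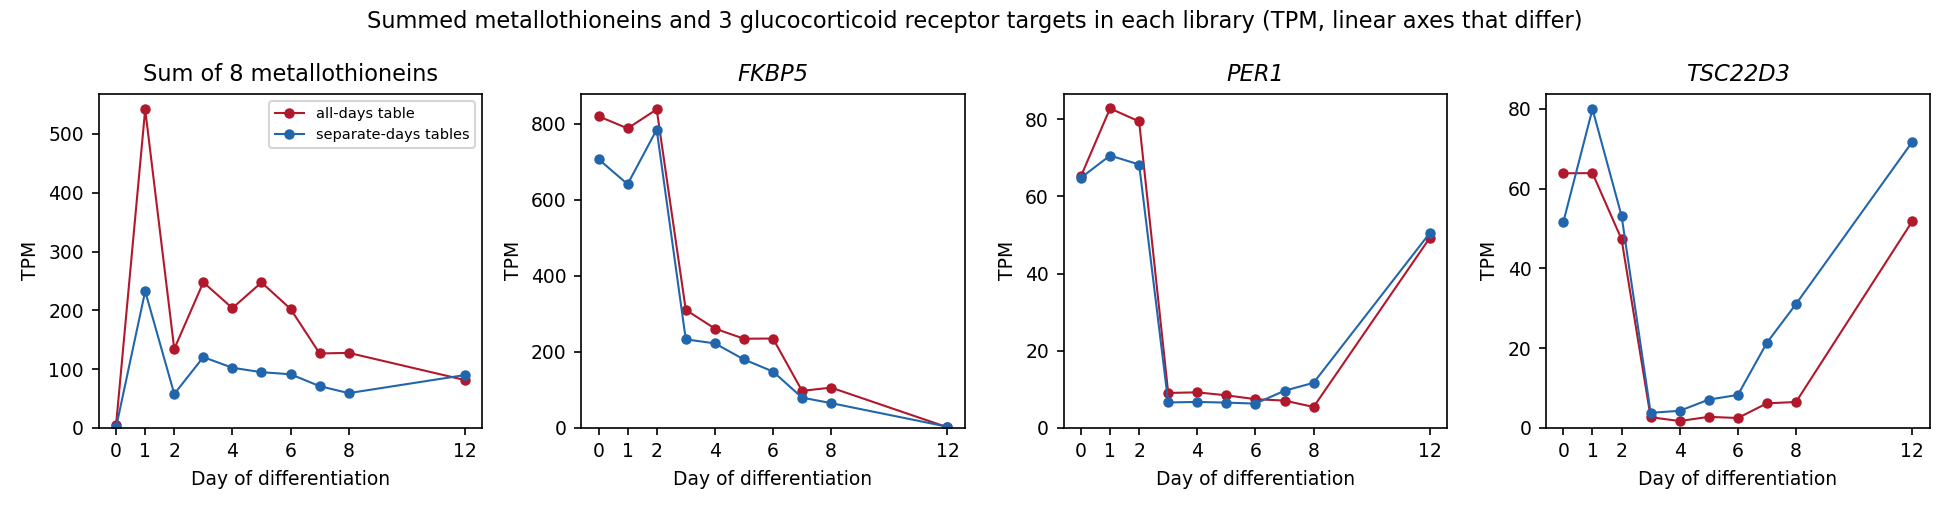
Summed TPM of the 8 metallothioneins and TPM of the glucocorticoid receptor targets FKBP5, PER1 and TSC22D3 (vertical axes, linear, from 0, different in each panel) by day of differentiation (horizontal axes), 1 point for each library. The sum rises from 5.51 and 1.10 to 542 and 233 between day 0 and day 1, while the 3 targets drop between day 2 and day 3.

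Between the 2 sets of libraries MT1G, MT1E and MT1H differed by more than the other genes that had over 3 counts in both libraries on several days. MT1G was higher in the all-days library on all 9 days with over 3 counts in both, by a median of 3.52-fold in TPM and by 1.04- to 8.57-fold. MT1E was higher on all 8 such days (median 6.198-fold) and MT1H on all 8 (median 5.49-fold). For MT2A the median ratio was 1.60 and for SLC30A1 1.14, with the all-days library higher on 9 and on 5 of 10 days. In the fit with the library set as a term, chosen after the values had been seen, 5 of the 8 genes tested besides MT1G were higher in the all-days libraries, beside 15.5% of all genes that were higher and 17.2% that were lower. The fold was 5.72 for MT1E (edgeR adjusted p = 7.26e-06), 4.93 for MT1H (2.33e-05), 1.71 for MT1X (0.00439), 1.49 for MT2A (0.00108) and 1.20 for MTF1 (0.0110). SLC30A1 (fold 0.994, adjusted p = 0.970), MT1F (1.77, 0.308) and MT1M (0.673, 0.740) did not pass. Summed megakaryocyte markers also differed between the sets, with 10.7 and 69.0 TPM on day 0 and 7.43 and 69.8 on day 1. Of the 4 listed, PF4 and GP1BA had at most 3 counts in every library. The part of megakaryocyte markers in the result was not tested. The labels do not say what separates the sets, so the set and any difference in culture cannot be told apart.

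**Figure D5:**
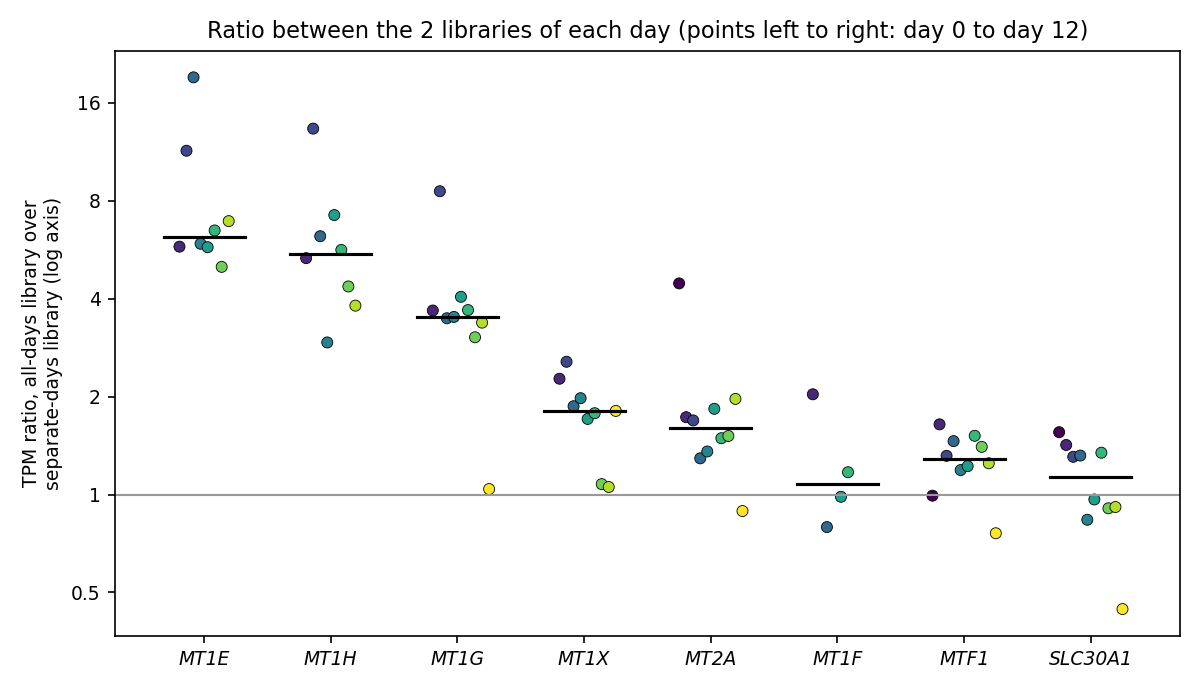
Ratio of TPM in the all-days library to TPM in the separate-days library of the same day (vertical axis, log scale) for 8 genes, 1 point for each day with over 3 counts in both libraries, from day 0 at the left to day 12 at the right of each gene, and a bar at the median. All points of MT1E and MT1H lie above 2.9, and those of SLC30A1 lie on both sides of 1.

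Metallothionein transcripts resemble each other, which bears on how reads could be divided among them. In the GENCODE 44 main transcripts of the 7 genes other than MT1E, whose main transcript has a longer coding part, coding sequences were 88.7% to 93.7% identical over 21 pairs. The longest stretch shared without a mismatch was 96 bases, between MT1G and MT1X. How the authors divided reads that fit several genes is not stated, so values of single MT1 genes, above all low ones, are less certain than their sum. Metallothioneins outside the 10 with over 3 counts in a library were MT1B (19 and 14 counts), MT1L (32 and 5) and MT1JP (13 and 0) on day 1, and MT1L also on day 12 (8 and 11). MT1DP, MT1HL1, MT3 and MT4 had 0 counts in every library, and MT1IP had 3 in 1 library.

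Within the 20 libraries, the pattern most like that of MT1G (log2 normalised CPM, 11835 genes compared, given without a p because the points share days and library sets) belonged to MT1H (Pearson r 0.946) and MT1X (0.934). These were followed by UQCC3 (0.904), an assembly factor of respiratory complex III, PIGO (0.885), an enzyme of GPI anchor synthesis, and ZNF619 (0.863). Genes with a mean under 1 CPM were not among those compared. MT1E, left out for that reason, correlated with MT1G at 0.881. For SLC30A1 the 5 closest were ACSF3 (0.973), SERPINI1 (0.963), ENTPD5 (0.957), WARS1 (0.956), the tryptophanyl-tRNA synthetase, and SLC25A39 (0.955), a mitochondrial glutathione carrier. MT1G and SLC30A1 themselves correlated at 0.264, and MT2A and SLC30A1 at 0.796.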

How the data were processed

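RNA was measured in 20 libraries of HUDEP-2 cells, 2 on each of 10 days. Per the labels and the methods, reads were trimmed by the authors (Trimmomatic 0.38), placed on hg38 by HISAT2 2.1.0 and assigned to RefSeq transcripts by StringTie 2.1.3b; read length and the division of shared reads are not given in the sources used here. The deposited counts are whole numbers without normalization, and the deposited TPM were scaled by the authors for length and library total. Of 63 value columns 23 were not used: the authors' FPKM and a further day 0 column set, since there were 3 such sets for 2 day 0 samples and the labels do not tie them to each other. The columns carry no replicate numbers.

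Counts and TPM of 170322 transcripts were summed by symbol to 46425 genes. The counts were fitted with edgeR 4.0.16 in R 4.3.3 (filterByExpr, which 16784 genes passed, TMM normalization, glmQLFit and glmQLFTest, 1 coefficient for each day). P-values were adjusted by Benjamini-Hochberg over all genes tested, with a threshold of 0.05, and each SE was derived from the fold change and the F statistic. Within a set of libraries, differences are of log2 CPM (prior count 2). A fold against libraries at 0 was computed against 3 counts in each library (0.0426 to 0.0575 CPM), averaged over the group; this covers counting error only. Alternatives were DESeq2 1.42.0, edgeR's exact test, limma 3.58.1 on log2(TPM + 1) and log2(TPM + 0.1), other normalizations and filters, a block for the library set, the compared days alone, and each library left out. The fit without the 2 libraries rich in ribosomal RNA was added after the data had been seen. The scripts were tested on simulated data.

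The 10 genes, the lists and the tests were chosen with earlier results of these data known. Named were all 10 genes, further metallothioneins with over 3 counts in a library, at most the 3 highest and 3 lowest passing genes of each list and step, and the 5 genes most like MT1G and SLC30A1 in Pearson correlation with a mean of at least 1 CPM; list genes given beside them without a call were chosen after their values had been seen. Promoters are from RefSeq (GRCh38.p14) and gene models from GENCODE 44. A comparison of protein sequences was not run. A leukocyte marker of the list is not reported here by itself.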

Additional observations from a re-analysis of the deposited data

How the results depend on the processing

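Of the 5 counts of genes called (out of 8 tested besides MT1G), that of day 1 against day 0 depended most on the test. Brackets give the share of all genes called in either direction. The count was 3 in the fit as reported (0.393%) and 6 with a block for the library set (2.63%). By DESeq2, which gave no adjusted p for MT1M, it was 6 (2.87%), and by edgeR's exact test 7 (1.65%). Limma gave 6 on log2(TPM + 0.1) (0.935%) and 5 on log2(TPM + 1) (1.78%). With no filter beyond 1 count it was 5 of 9 (0.335%). With the 2 days alone in the fit it was 0, as for all genes. MT1M passed the filter on low counts only through day 1, so any call of it among these counts supports nothing. Days 4 to 6 against day 1 gave 4 as reported (10.8%) and fewer in some fits with a library left out. The 4 include MT1M, whose fall the filter on low counts fixed and which DESeq2 did not call (adjusted p = 0.495). Day 8 against days 4 to 6 gave 1 as reported (22.7%) and 2 by limma on log2(TPM + 0.1) (35%) and on log2(TPM + 1) (35.2%). The count rose in some fits with a library left out. Without the separate-days library of day 8, a smaller share of all genes passed. Day 12 against day 8 gave 4 as reported (57.2%) and 2 by limma on log2(TPM + 1) (62%). Day 12 against day 0 gave 4 as reported and 2 by limma with either pseudocount. Upper-quartile normalization, TMM without globin or ribosomal RNA genes, and a minimum average of 10 counts kept each count within 1.5 times the reported one, as did the fit without the 2 libraries rich in ribosomal RNA, which was chosen after seeing the data.

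Of 626 alternative values of single genes, 560 kept direction and side of the threshold, 18 lost the call, 29 gained it and 19 reversed in sign. By limma on log2(TPM + 0.1) and log2(TPM + 1), the reversed values were -0.23 and -0.16 for MT1E and -0.27 and -0.27 for MT2A (day 8 against days 4 to 6), and for MTF1 -0.15 and -0.13 in that step, -0.0063 and -0.0051 for day 12 against day 8, and -0.16 and -0.14 for day 12 against day 0. With each library left out, values that reversed ranged from -1.16 to 0.96 (MT1E) and -0.22 to 0.49 (MT2A) for day 8 against days 4 to 6. For days 4 to 6 against day 1 they ranged from -1.93 to 0.51 (MT1E), -2.09 to 0.19 (MT1H), -0.55 to 0.51 (MT1X, reversed without the all-days library of day 1, 0.51, or the separate-days library of day 4, 0.021) and -0.068 to 0.52 (MTF1). For MTF1 from day 0 to day 1 they ranged from -0.36 to 0.23, with 0.012 without the separate-days library of day 0. The cause of these changes was not tested, except that leaving out libraries leaves fewer samples. With 1 library left on a day, its spread is taken from the other days.

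No paired analysis was possible by replicate number, because the columns carry none. The block for the library set, which pairs the days by deposited table instead, changed no call from passing to not passing. MT1A, at 54 counts in all, did not pass the filter on low counts of the fit as reported and has no test there. MT1F and MT1M were not detectable at this depth after day 6.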
